A study of Arabidopsis thaliana with 6 samples.

Results

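The aquaporin family of Arabidopsis thaliana was followed through seedlings, roots and floral buds of the accessions Col-0 and Can-0. Its 35 members were chosen by a list of locus identifiers covering the PIP1 (5 genes), PIP2 (8), TIP (10), NIP (9) and SIP (3) subfamilies, and all 35 were found among the 28775 features of the expression files. Aquaporins are membrane channels that let water and small uncharged molecules cross a membrane. Plasma membrane intrinsic proteins (PIP) serve mainly the cell surface, tonoplast intrinsic proteins (TIP) the vacuole, nodulin 26-like intrinsic proteins (NIP) carry solutes such as boric acid and arsenite as well as water, and small basic intrinsic proteins (SIP) sit mainly in the endoplasmic reticulum. In roots they contribute to water uptake, and in growing cells to the filling of the vacuole. The members are named here with a hyphen, as in UniProt protein names (PIP1-4 for the gene also written with a semicolon).

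Polyadenylated RNA was sequenced from 1 library for each accession and tissue, 6 libraries in all. Col-0 is the accession of the reference genome, and Can-0 is a Canary Islands accession. MAGIC inbred lines descend from crosses among many founders, of which Col-0 and Can-0 are a pair, and the design compares tissues and these accessions. Seedlings were 11 days old and grew on soil, roots were 10 days old and came from plates, and floral buds were at stage 12 from plants on soil, all with 16 hours of light and 8 hours of dark at 20 C. Seedling libraries were sequenced in run 33, root libraries in run 40, the Col-0 bud library in run 36 and the Can-0 bud library in run 35. Tissue and run, and for root also growth on plates, cannot be told apart. In buds, accession and run cannot be told apart either. Lane differed between the accessions in every tissue, so accession and lane cannot be told apart within a tissue.

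Each library held an estimated 21700000 to 22800000 mapped reads, and 17222 to 18989 features reached 1 RPKM, a read density scaled to gene model length and to library depth. Marker sums were highest in roots for root hair genes, in buds for floral organ genes and in seedlings for green tissue genes. The summed level of 5 root hair genes was 108 RPKM in Col-0 and 67.2 RPKM in Can-0 roots and at most 0.357 RPKM elsewhere, and that of 6 floral organ genes was 822 and 1041 RPKM in buds and at most 2.45 RPKM elsewhere. Of 6 green tissue genes the sum was 20889 and 16288 RPKM in seedlings, 6305 and 4943 RPKM in buds, and 69.2 and 26.0 RPKM in roots. In the seedling libraries the root hair genes summed to 0.0205 RPKM in Col-0 and 0.0604 RPKM in Can-0, with 0 of 5 at 1 RPKM. The 6 endodermis genes summed there to 0.570 and 0.458 RPKM, with 0 of 6 at 1 RPKM. How much root tissue the seedling libraries held was not tested. In bulk tissue, fewer cells of a type and less RNA per cell cannot be told apart.

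The channel pore is lined by a pair of short loops, each usually carrying the box named after asparagine, proline and alanine. The boxes are shown because some NIP genes and the SIP genes depart there from the codon of the other members. In the reference coding sequences, the last codon of the box began with GC, as alanine codons do, in 30 of 35 first boxes and in 31 of 35 second boxes. The exceptions were all NIP or SIP genes. The lines below give 27 bases of the RefSeq reference genome (TAIR10.1) around the box, 5′ to 3′ on the coding strand, with the 9 bases of the box in capitals. PIP1-4 and TIP2-3 are shown as members with the usual codon, and the rest as members in which the last codon differs.
PIP1-4 first box, chr4:186869-186895, minus strand: ggacacatcAACCCTGCTgtaacattc
PIP1-4 second box, chr4:186378-186404, minus strand: accggaatcAACCCAGCTagaagtctt
TIP2-3 first box, chr5:19249203-19249229, minus strand: ggtcaccttAACCCAGCCgtgactctt
NIP5-1 first box, chr4:6432360-6432386, minus strand: gctcacctaAACCCATCActgaccata
NIP7-1 first box, chr3:1842429-1842455, minus strand: gcccatcttAACCCTTCCatcaccatt
NIP1-1 second box, chr4:10421905-10421931, minus strand: gcgtcgatgAATCCAGGAagaagttta
NIP5-1 second box, chr4:6431686-6431712, minus strand: ggatctatgAATCCTGTGagaactcta
NIP6-1 second box, chr1:30350793-30350819, minus strand: gcttcgatgAACCCTGTAagaacactg
SIP1-1 first box, chr3:1073807-1073833, minus strand: gctagcttcAATCCTACCggaagcgct
SIP1-2 first box, chr5:6056177-6056203, minus strand: gctagcttcAATCCTTGTggaaacgca
SIP2-1 first box, chr3:21079423-21079449, minus strand: gggctttatAATCCTTTGaccgctttg
The last codon of the first box was TCA in NIP5-1, TCC in NIP7-1, ACC in SIP1-1, TGT in SIP1-2 and TTG in SIP2-1. That of the second box was GGA in NIP1-1 and NIP1-2, GTG in NIP5-1 and GTA in NIP6-1. These are reference sequences and do not show what Can-0 carries.

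RPKM is scaled to gene length, so levels can be set side by side between members. Pairs of values below list Col-0 before Can-0. The summed level of the 35 members was 2333 and 2079 RPKM in seedlings, 3595 and 3339 RPKM in roots, and 2180 and 2047 RPKM in buds. The root libraries had the highest sums in both accessions. TIP genes held the largest share of the sum in seedlings, 52.2% and 54.4%, and in roots, 43.3% and 41.9%. In buds TIP genes held 32.7% and 35.9%, close to the 32.9% and 32.9% of the PIP2 genes. PIP1 genes held 19.6% to 26.4% of the sum in the 6 libraries. NIP genes held 1.04% and 1.08% in seedlings, 4.17% and 5.52% in roots and 2.10% and 3.63% in buds. SIP genes held 2.83% to 5.87%. One member, TIP1-2, gave 36.4% and 40.1% of the seedling sum, and without it the mean TIP share in seedlings was 24.3%.

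**Figure D1:**
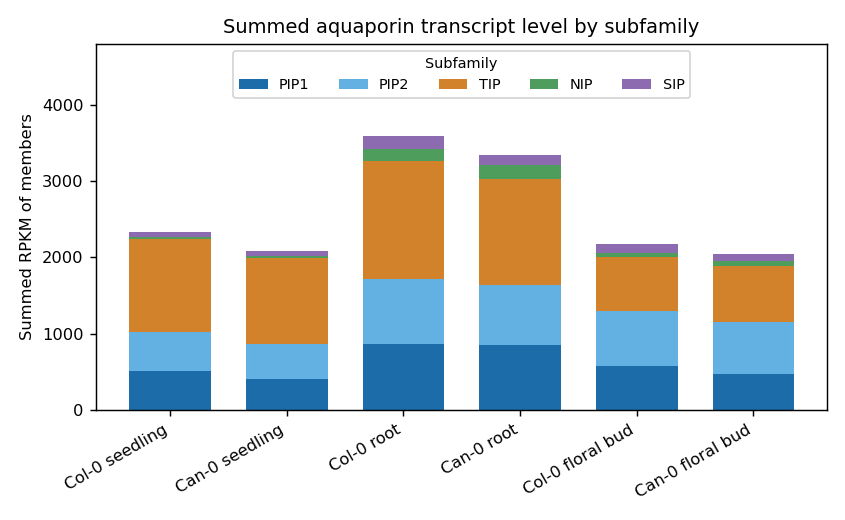
Stacked bars give the summed RPKM of each aquaporin subfamily in each of the 6 libraries. The root bars reach 3595 and 3339 RPKM and the other bars 2047 to 2333 RPKM.

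**Figure D2:**
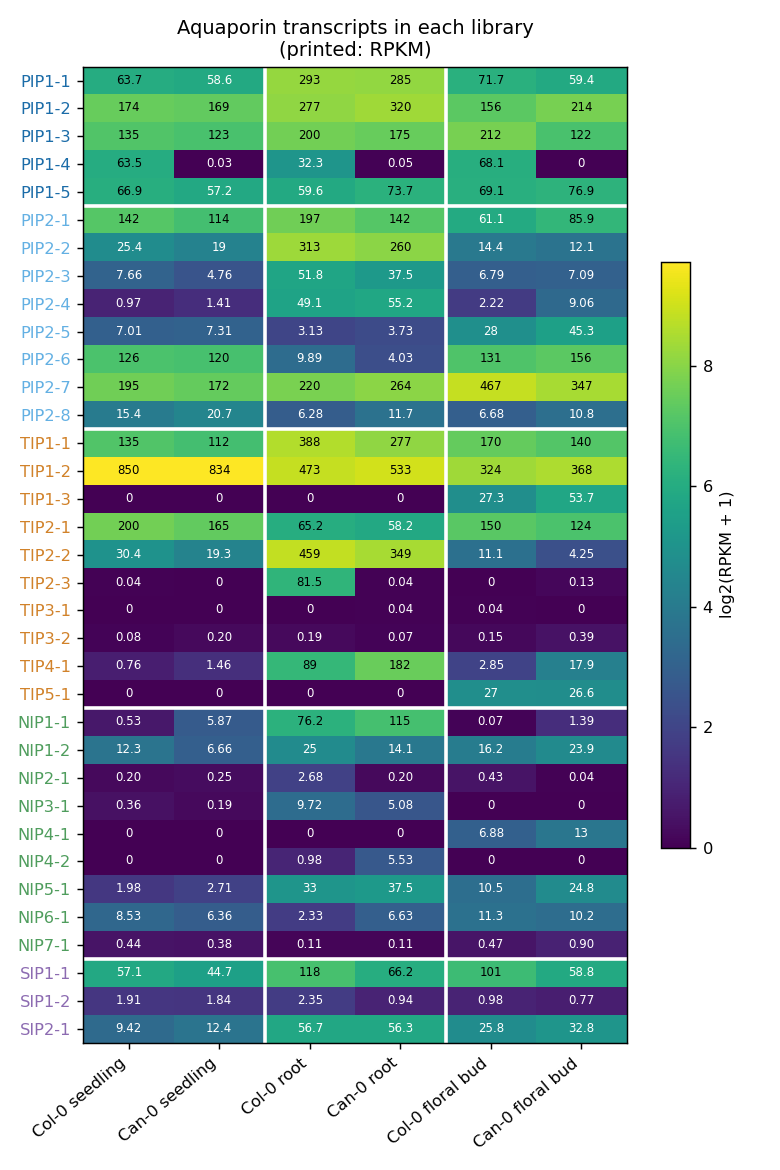
Each cell gives the RPKM of 1 member in 1 library, coloured by log2(RPKM + 1), with members grouped by subfamily and libraries by tissue. PIP1-4 is at 32.3 to 68.1 RPKM in Col-0 and near 0 in Can-0, and TIP1-3, TIP5-1 and NIP4-1 have values in buds alone.

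At least 1 RPKM was reached in every library by 20 of the 35 members and in no library by 3 of them (TIP3-1, TIP3-2 and NIP7-1). The tissue and accession comparisons used log2(RPKM + 1) and limma, with 1 library per group, so the spread behind a test is the disagreement of the accessions about a tissue difference. The labels call each library a biological replicate numbered 1 and do not say how many plants it pools. A call is a Benjamini-Hochberg adjusted p under 0.05 over the 20830 features with at least 1 RPKM in at least 2 libraries. Of the 35 members 29 were tested. TIP1-3, TIP5-1 and NIP4-1 passed that filter through buds alone, NIP3-1 through roots alone and PIP1-4 through Col-0 alone, so a difference in those members was set by the filter. Differences are given ± SE on the log2 scale and understate the change of low genes.

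Between seedlings and roots, 5 tested members were higher in seedlings and 13 were lower, while 59.5% of all tested features were called (18.5% higher and 41.0% lower). Between buds and seedlings, 10 members were higher in buds and 5 were lower, against 44.8% of features called (32.8% higher and 12.0% lower). Between buds and roots, 7 members were higher in buds and 14 were lower, against 57.3% called (30.3% higher and 27.0% lower). The members higher in buds include TIP1-3, TIP5-1 and NIP4-1 in both bud comparisons, each through the filter. Those lower than in roots include NIP3-1 in both root comparisons, also through the filter. The counts and the medians include these members, so they are no measure of the family free of the filter. The median difference of the tested members was -0.54 for seedling minus root, 0.23 for bud minus seedling and -0.45 for bud minus root. Over all tested features the medians were -0.33, 0.27 and 0.02. The 3 comparisons share libraries and are not independent of each other.

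The scaling of the libraries moved these counts. Under quantile normalization the median over all features became -0.08, -0.15 and -0.17 in the same order. All features called then split into 4851 higher and 6430 lower for seedling minus root, where the deposited scaling gave 3849 and 8549. For bud minus seedling the split was 3730 higher and 5250 lower in place of 6837 and 2499, and for bud minus root 5447 and 7301 in place of 6309 and 5623. Members split into 4 higher and 13 lower, 7 and 7, and 7 and 15. No member called under the deposited scaling changed its direction under quantile normalization or under centring each library on its median.

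**Figure D3:**
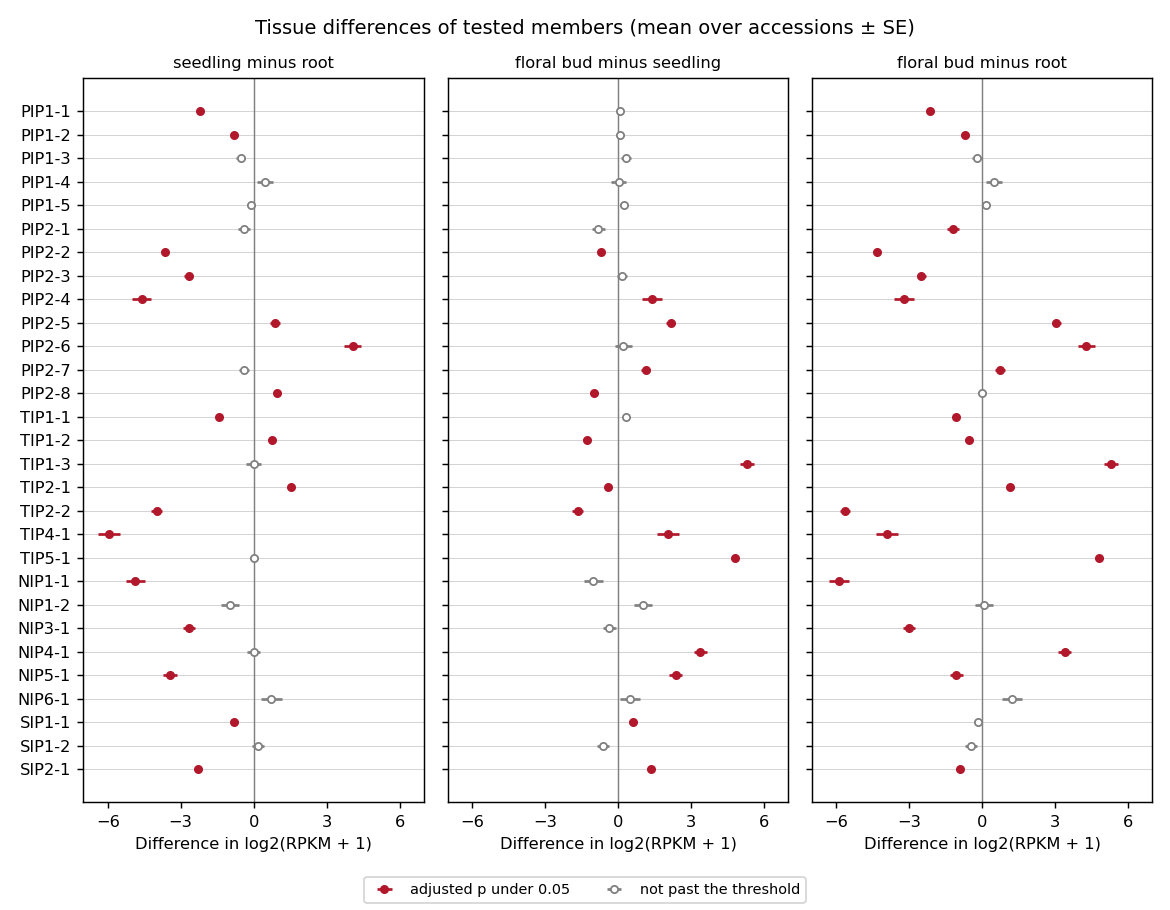
Points give the difference in log2(RPKM + 1) between tissues for each of the 29 tested members, as the mean over both accessions with its standard error, and filled points have an adjusted p under 0.05. Seedling minus root differences run from -5.95 for TIP4-1 to 4.07 for PIP2-6.

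A set of 12 members was higher in roots than in both other tissues, a pattern held by 23.3% of all tested features, 1 of them (NIP3-1) through the filter. They were PIP1-1, PIP1-2, PIP2-2, PIP2-3, PIP2-4, TIP1-1, TIP2-2, TIP4-1, NIP1-1, NIP3-1, NIP5-1 and SIP2-1, so every subfamily had at least 1. Members higher in buds than in both others were PIP2-5, PIP2-7, TIP1-3, TIP5-1 and NIP4-1, a pattern of 15.8% of features, 3 of them through the filter. Members higher in seedlings than in both others were PIP2-8, TIP1-2 and TIP2-1, a pattern of 8.38% of features. PIP2-5, PIP2-6 and TIP2-1 were lowest in roots, as were 14.9% of features. PIP2-2, TIP1-2 and TIP2-2 were lowest in buds, as were 3.35% of features, and PIP2-4, TIP4-1, NIP5-1, SIP1-1 and SIP2-1 were lowest in seedlings, as were 17.4%. Root hair and endodermis markers move with the root libraries. The 6 endodermis genes summed to 135 and 130 RPKM in roots, with 5 of 6 at 1 RPKM or more, and to at most 0.707 RPKM elsewhere. The part of these cell types in the root levels of the aquaporins was not tested.

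Among the PIP1 genes, which move water and in some cases carbon dioxide across the plasma membrane, 2 of 5 were higher in roots than in both other tissues and the other 3 passed in no tissue comparison. PIP1-1 (AT3G61430) was at 63.7 and 58.6 RPKM in seedlings, 293 and 285 RPKM in roots and 71.7 and 59.4 RPKM in buds. The root libraries stood above all others without overlap. Its seedling minus root difference was -2.22 ± 0.11 (adjusted p = 0.000241) and its bud minus root difference -2.13 ± 0.11 (adjusted p = 0.000241). PIP1-2 (AT2G45960), which contributes to root water transport, was the highest PIP1 gene in seedlings at 174 and 169 RPKM. It had 277 and 320 RPKM in roots and 156 and 214 RPKM in buds. Its seedling minus root difference was -0.79 ± 0.16 (adjusted p = 0.0121) and its bud minus root difference -0.70 ± 0.16 (adjusted p = 0.0182). Both of these calls were lost without a root library, with adjusted p up to 0.0587 and 0.0996, and the bud minus root call also without the Col-0 bud library. The seedling minus root call was lost with median-centred libraries as well.

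PIP1-3 (AT1G01620) was at 135 and 123 RPKM in seedlings, 200.4 and 175 RPKM in roots, and 212 and 122 RPKM in buds. PIP1-5 (AT4G23400) was at 57.2 to 76.9 RPKM in all 6 libraries. Neither passed in any tissue comparison, and the bud values of PIP1-3 differ between the accessions more than its tissue means do. PIP1-4 (AT4G00430), which can import hydrogen peroxide in immune signalling, was set apart by accession and is described with the accessions below.

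The PIP2 genes, the more active water channels of the plasma membrane when made in frog oocytes, split by tissue. PIP2-2 (AT2G37170), which contributes to the water permeability of root cells, was at 25.4 and 19.0 RPKM in seedlings, 313 and 260.3 RPKM in roots and 14.4 and 12.1 RPKM in buds. Its root values lay far above the others, with a seedling minus root difference of -3.64 ± 0.10 (adjusted p = 9.81e-05) and a bud minus root difference of -4.33 ± 0.10 (adjusted p = 7.48e-05). It was also lower in buds than in seedlings, by a difference of -0.69 ± 0.10 (adjusted p = 0.00833), a call lost without either bud library (adjusted p up to 0.0793). Its tandem neighbour PIP2-3 (AT2G37180), first found as a desiccation-response transcript, was at 7.66 and 4.76 RPKM in seedlings, 51.8 and 37.5 RPKM in roots and 6.79 and 7.09 RPKM in buds. It was lower than in roots by a difference of -2.67 ± 0.20 in seedlings (adjusted p = 0.00065) and -2.50 ± 0.20 in buds (adjusted p = 0.00072). The coding sequences of these neighbours share 94.8% of 858 aligned bases, and 2612 bases with no gene lie between them on chromosome 2. How reads that match both were assigned is not given in the sources used here, so their separate levels are uncertain.

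PIP2-4 (AT5G60660), which carries water and hydrogen peroxide in roots, was at 0.967 and 1.41 RPKM in seedlings, 49.1 and 55.2 RPKM in roots and 2.22 and 9.06 RPKM in buds. The tissues did not overlap. The seedling minus root difference was -4.61 ± 0.41 (adjusted p = 0.00106) and the bud minus root difference -3.22 ± 0.41 (adjusted p = 0.00304). Its bud minus seedling difference of 1.39 ± 0.41 (adjusted p = 0.0488) was lost without any 1 of the seedling libraries or the Can-0 bud library, with adjusted p up to 0.176, and under 5 other settings, which were a pseudocount of 5, no filter, no trend and both rescalings.

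PIP2-6 (AT2G39010), found in leaf veins and rosettes, had the opposite pattern. It was at 126 and 120.0 RPKM in seedlings and 131 and 156 RPKM in buds, but at 9.89 and 4.03 RPKM in roots. Seedlings exceeded roots by 4.07 ± 0.35 (adjusted p = 0.000973) and buds exceeded roots by 4.28 ± 0.35 (adjusted p = 0.000784). PIP2-5 (AT3G54820) was highest in buds at 28.0 and 45.3 RPKM, with 7.01 and 7.31 RPKM in seedlings and 3.13 and 3.73 RPKM in roots. Its bud minus seedling difference was 2.17 ± 0.20 (adjusted p = 0.00217) and its bud minus root difference 3.05 ± 0.20 (adjusted p = 0.0004). The call of seedling over root in PIP2-5, 0.89 ± 0.20 (adjusted p = 0.0168), was lost without either root library or the Col-0 seedling library, with adjusted p up to 0.0814, and with a pseudocount of 5.

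PIP2-7 (AT4G35100), a widely made water channel lowered by salt, was the highest member in Col-0 buds at 467 RPKM. It had 347 RPKM in Can-0 buds, 195 and 172 RPKM in seedlings and 219.8 and 264 RPKM in roots. Buds exceeded seedlings by 1.13 ± 0.20 (adjusted p = 0.0121) and roots by 0.74 ± 0.20 (adjusted p = 0.0305). Both calls were lost without the Col-0 bud library (adjusted p up to 0.0743 and 0.154) and with median-centred libraries, and the second also without the Col-0 root library. PIP2-1 (AT3G53420), which takes part in water and hydrogen peroxide movement in guard cells and roots, was at 142 and 114 RPKM in seedlings, 197 and 142 RPKM in roots and 61.1 and 85.9 RPKM in buds. It was lower in buds than in roots by a difference of -1.20 ± 0.26 (adjusted p = 0.0165), a call lost without the Col-0 root library (adjusted p = 0.0794). PIP2-8 (AT2G16850) stayed between 6.28 and 20.7 RPKM and was higher in seedlings than in roots by 0.97 ± 0.15 (adjusted p = 0.00574). Its lower level in buds than in seedlings, -0.98 ± 0.15 (adjusted p = 0.00875), was lost without either bud library.

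The TIP genes ranged from the most abundant member in seedlings and roots to members listed at 0 in most libraries. TIP1-2 (AT3G26520), a water channel of the vacuole membrane, was at 849.7 and 834 RPKM in seedlings, 473 and 533 RPKM in roots and 324 and 368 RPKM in buds, and ranked 87 of all features in both seedling libraries. The tissues did not overlap. It was lower in buds than in seedlings by a difference of -1.28 ± 0.14 (adjusted p = 0.00332) and higher in seedlings than in roots by 0.74 ± 0.14 (adjusted p = 0.00948). The latter call was lost without the Col-0 root library (adjusted p = 0.0593) and under quantile normalization, and its bud minus root difference of -0.54 ± 0.14 (adjusted p = 0.0265) was lost without any 1 of the root or bud libraries and without the filter.

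TIP1-1 (AT2G36830), which also passes urea and hydrogen peroxide, was at 135 and 112 RPKM in seedlings, 388 and 277 RPKM in roots and 170.4 and 139.9 RPKM in buds. Its root values exceeded all others, by a seedling minus root difference of -1.41 ± 0.12 (adjusted p = 0.000897) and a bud minus root difference of -1.08 ± 0.12 (adjusted p = 0.00188). TIP2-1 (AT3G16240), which passes ammonia, was the reverse, at 200.4 and 165 RPKM in seedlings, 65.2 and 58.2 RPKM in roots and 149.9 and 124 RPKM in buds. Seedlings exceeded roots by 1.55 ± 0.10 (adjusted p = 0.000474) and buds exceeded roots by 1.13 ± 0.10 (adjusted p = 0.00106). Its bud minus seedling call (-0.41 ± 0.10, adjusted p = 0.0316) was lost whichever library was left out, with adjusted p of 0.0547 to 0.173, and without the trend.

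TIP2-2 (AT4G17340) was second in roots, at 459 and 349 RPKM, with 30.4 and 19.3 RPKM in seedlings and 11.1 and 4.25 RPKM in buds. The bud minus root difference was -5.65 ± 0.22 (adjusted p = 0.000131) and the seedling minus root difference -3.99 ± 0.22 (adjusted p = 0.000296). TIP4-1 (AT2G25810), a root channel that passes urea, was at 0.758 and 1.46 RPKM in seedlings, 89.0 and 182 RPKM in roots and 2.85 and 17.9 RPKM in buds. It had the most negative seedling minus root difference of the tested members, -5.95 ± 0.45 (adjusted p = 0.000708), and a bud minus root difference of -3.91 ± 0.45 (adjusted p = 0.00234). Its higher level in buds than in seedlings, 2.04 ± 0.45 (adjusted p = 0.0233), was lost without either Can-0 seedlings or Can-0 buds, with adjusted p up to 0.0709, with a pseudocount of 5 and under quantile normalization.

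TIP1-3 (AT4G01470) and TIP5-1 (AT3G47440), channels known from pollen, were listed at 0 in all seedling and root libraries. TIP1-3 was at 27.3 RPKM in Col-0 and 53.7 RPKM in Can-0 buds, and TIP5-1 at 27.0 and 26.6 RPKM. Of the NIP genes, NIP4-1 (AT5G37810), also known from pollen, was at 6.88 and 13.0 RPKM in buds and listed at 0 in the 4 other libraries. The 6 pollen markers summed to 1380 and 1467 RPKM in buds and to at most 1.30 RPKM elsewhere. Their part in the bud levels of these 3 genes was not tested. TIP3-1 (AT1G73190) and TIP3-2 (AT1G17810), channels of seed storage vacuoles, were at most 0.0371 and 0.385 RPKM in any library. The 7 seed storage markers summed to at most 0.476 RPKM.

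The 250 bases upstream of the gene start are shown for the 3 genes with values in buds alone and for NIP4-2, the tandem neighbour of NIP4-1, which had values in roots alone. They are the RefSeq reference sequence (TAIR10.1), 5′ to 3′ on the strand of the gene. Capitals mark AGAAA and GTGA, short motifs described for pollen genes of tomato and tobacco, on either strand, where they read TTTCT and TCAC on the opposite strand.
TIP1-3 upstream, chr4:625886-626135, minus strand: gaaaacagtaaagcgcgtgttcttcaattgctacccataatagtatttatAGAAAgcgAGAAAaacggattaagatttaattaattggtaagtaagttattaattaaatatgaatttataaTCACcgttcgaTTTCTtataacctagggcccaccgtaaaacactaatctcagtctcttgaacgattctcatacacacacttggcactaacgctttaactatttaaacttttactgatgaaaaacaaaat
TIP5-1 upstream, chr3:17481746-17481995, plus strand: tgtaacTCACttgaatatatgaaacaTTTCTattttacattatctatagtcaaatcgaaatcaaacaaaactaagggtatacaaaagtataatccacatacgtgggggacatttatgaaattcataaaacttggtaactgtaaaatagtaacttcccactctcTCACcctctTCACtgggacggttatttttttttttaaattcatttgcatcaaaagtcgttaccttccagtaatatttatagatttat
NIP4-1 upstream, chr5:15044864-15045113, plus strand: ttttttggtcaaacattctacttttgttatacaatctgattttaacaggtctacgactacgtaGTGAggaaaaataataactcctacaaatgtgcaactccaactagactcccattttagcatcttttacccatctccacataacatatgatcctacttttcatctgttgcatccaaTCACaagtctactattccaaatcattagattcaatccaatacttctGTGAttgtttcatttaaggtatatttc
NIP4-2 upstream, chr5:15049752-15050001, plus strand: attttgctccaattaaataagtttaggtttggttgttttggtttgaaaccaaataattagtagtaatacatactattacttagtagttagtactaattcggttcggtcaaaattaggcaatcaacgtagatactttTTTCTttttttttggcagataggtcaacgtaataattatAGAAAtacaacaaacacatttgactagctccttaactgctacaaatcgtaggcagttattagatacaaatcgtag
AGAAA was present 3 times for TIP1-3, 1 time for TIP5-1, 0 times for NIP4-1 and 2 times for NIP4-2. GTGA was present 1, 3, 3 and 0 times in the same order, and no match overlapped another. Among 27995 upstream windows of the same length, 82.7% held AGAAA and 77.5% held GTGA. At least 3 matches were held by 28.9% of windows for AGAAA and by 21.6% for GTGA.

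The NIP genes were mostly at low level, and the highest was in roots. NIP1-1 (AT4G19030), which takes up arsenite, was at 0.528 and 5.87 RPKM in seedlings, 76.2 and 115 RPKM in roots and 0.0747 and 1.39 RPKM in buds. Roots exceeded every other library, with a seedling minus root difference of -4.87 ± 0.40 (adjusted p = 0.000864) and a bud minus root difference of -5.89 ± 0.40 (adjusted p = 0.000459). NIP5-1 (AT4G10380), the boric acid importer of roots, was at 1.98 and 2.71 RPKM in seedlings, 32.98 and 37.5 RPKM in roots and 10.5 and 24.8 RPKM in buds. All 3 tissues were separated, with a seedling minus root difference of -3.44 ± 0.28 (adjusted p = 0.000821) and a bud minus seedling difference of 2.37 ± 0.28 (adjusted p = 0.0042). Its bud minus root difference of -1.07 ± 0.28 (adjusted p = 0.028) was lost without the Col-0 root or the Col-0 bud library, with adjusted p up to 0.137.

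NIP3-1 (AT1G31885), which is linked to arsenite transport, was at 9.72 and 5.08 RPKM in roots, 0.364 and 0.189 RPKM in seedlings and listed at 0 in buds. NIP1-2 (AT4G18910), which carries aluminium malate in roots, was at 12.3 and 6.66 RPKM in seedlings, 25.02 and 14.1 RPKM in roots and 16.2 and 23.9 RPKM in buds. NIP6-1 (AT1G80760), a boric acid channel of shoot nodes, was at 8.53 and 6.36 RPKM in seedlings, 2.33 and 6.63 RPKM in roots and 11.3 and 10.2 RPKM in buds. Seedlings lay below the other tissues for NIP1-2 and buds lay above them for NIP6-1, while the remaining pair of tissues overlapped in each gene, and neither passed in any tissue comparison. NIP2-1 (AT2G34390), a lactic acid channel of oxygen-starved roots, reached 2.68 RPKM in Col-0 roots and at most 0.430 RPKM elsewhere. NIP4-2 (AT5G37820), known from pollen tubes, was listed at 0 in seedlings and buds and at 0.985 and 5.53 RPKM in roots. It lies 1989 bases from NIP4-1 on chromosome 5 with no gene between, and shares 88.1% of 852 aligned coding bases with it. NIP7-1 (AT3G06100), a boric acid channel of the anther tapetum, was at most 0.901 RPKM, in Can-0 buds. The 6 tapetum markers were near 0 in buds as well, at summed levels of 1.17 and 2.45 RPKM, with 4 and 3 of them listed at 0.

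Among the SIP genes, SIP2-1 (AT3G56950), a channel of the endoplasmic reticulum, was at 9.42 and 12.4 RPKM in seedlings, 56.7 and 56.3 RPKM in roots and 25.8 and 32.8 RPKM in buds. The tissues did not overlap, with a seedling minus root difference of -2.28 ± 0.14 (adjusted p = 0.000391), a bud minus seedling difference of 1.35 ± 0.14 (adjusted p = 0.00312) and a bud minus root difference of -0.93 ± 0.14 (adjusted p = 0.00525). The last was lost without the Col-0 bud library (adjusted p = 0.0502). SIP1-1 (AT3G04090) was the highest SIP gene in every library, at 57.1 and 44.7 RPKM in seedlings, 118 and 66.2 RPKM in roots and 101.3 and 58.8 RPKM in buds. Its seedling level was lower within each accession, by -0.79 ± 0.15 against roots (adjusted p = 0.0115) and with buds higher than seedlings by 0.60 ± 0.15 (adjusted p = 0.0347). Leaving out the Col-0 root library ended the first call, and leaving out either bud library or the Col-0 seedling library ended the second, as did both rescalings and a fit without the trend. SIP1-2 (AT5G18290) was at 0.768 to 2.35 RPKM and passed in no tissue comparison.

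Between the accessions over the tissues, 1 of 29 tested members was called lower in Can-0 and 0 were called higher, where 0.960% of all tested features were called (200 of 20830) and 0.557% were called lower. At an unadjusted p under 0.05 there were 9 of 29 members, where 17.2% of all tested features passed. The median difference, Can-0 minus Col-0, was -0.10 over the tested members and 0.02 over all features. The called member was PIP1-4, at 63.5 RPKM in Col-0 seedlings, 32.3 RPKM in roots and 68.1 RPKM in buds. In Can-0 it was at 0.0257 RPKM in seedlings, 0.0490 RPKM in roots and listed at 0 in buds. Every Col-0 library stood above every Can-0 library. The difference was -5.69 ± 0.26 (adjusted p = 0.013), the second most negative of 20830 features. PIP1-4 entered the test through the Col-0 libraries alone, so this value describes the gene and is no support for a family difference. The call was lost without either bud library, with adjusted p between 0.00873 and 0.133 over the libraries left out.

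From the estimated depths, PIP1-4 had 2678 reads in Col-0 seedlings and 1 in Can-0 seedlings, a ratio per mapped read of 2578 with a 95% counting interval of 462 to 101871. In roots it had 1361 reads and 2 reads, a ratio of 688 with an interval of 190 to 5690. These intervals cover counting error only. Reads were rounded to whole numbers first. The unrounded Can-0 estimates were 1.05 reads in seedlings and 2.09 in roots, so rounding raised these ratios and their intervals. The ratios of the RPKM values themselves were 2466 in seedlings and 658 in roots. Of 15552 features with at least 1 RPKM in every Col-0 library, 47 were under 0.1 RPKM in every Can-0 library, and PIP1-4 was the 1 member among them. The gene lies at chr4:185285-187680 on the minus strand in TAIR10.1. The nearest genes did not share the pattern. On one side AT4G00420 was at 11.8 and 8.50 RPKM in seedlings, 15.7 and 16.1 RPKM in roots and 12.8 and 11.0 RPKM in buds. On the other side AT4G00440 (TRM15) was at 7.89 and 6.54 RPKM in seedlings, 17.8 and 14.9 RPKM in roots and 13.5 and 12.3 RPKM in buds. The values count reads as the authors assigned them, and the Can-0 sequence of the gene was not analysed here.

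**Figure D4:**
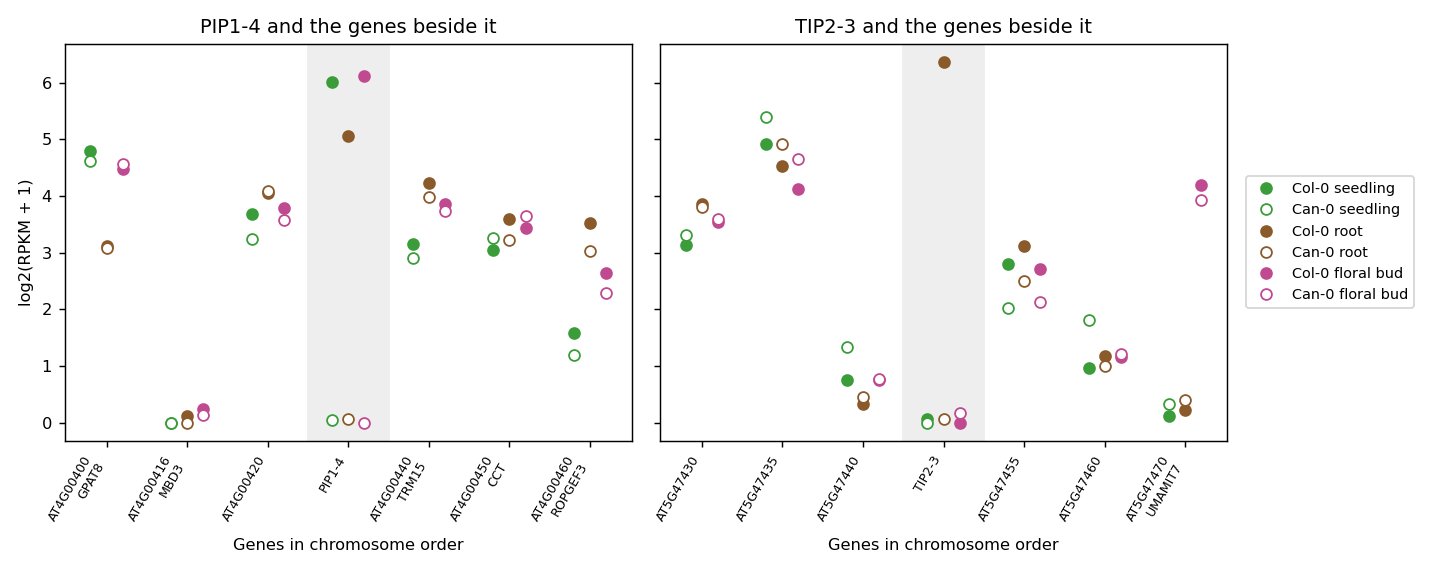
Points give log2(RPKM + 1) for PIP1-4 (left), TIP2-3 (right) and the 3 genes on each side of them in chromosome order, filled for Col-0 and open for Can-0, coloured by tissue. PIP1-4 is at 32.3 to 68.1 RPKM in Col-0 and at most 0.0490 RPKM in Can-0, and TIP2-3 in roots is at 81.5 and 0.0415 RPKM, while each neighbour differs by less than 1 on this scale between accessions in every tissue.

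Within a tissue the accessions were compared without a test, since each had 1 library, by counting members with a difference of at least 1 in log2(RPKM + 1). In seedlings 2 of 25 members with at least 1 RPKM in either library passed that size, where 9.01% of all such features did (4.78% higher and 4.23% lower in Can-0). NIP1-1 was higher in Can-0 seedlings, at 5.87 against 0.528 RPKM, and PIP1-4 was lower. In roots 7 of 29 members passed, where 7.43% of features did and 4.42% were lower by that size. TIP4-1, NIP4-2 and NIP6-1 were higher in Can-0 and PIP1-4, PIP2-6, TIP2-3 and NIP2-1 were lower. In buds, where the accessions also differ in run, 6 of 27 members passed, where 7.50% of features did (3.87% higher and 3.63% lower). PIP2-4, TIP4-1, NIP1-1 and NIP5-1 were higher in Can-0 and PIP1-4 and TIP2-2 were lower. Counts fell to 1, 2 and 2 members with a pseudocount of 5.

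TIP2-3 (AT5G47450), a root channel that passes ammonia, was at 81.5 RPKM in Col-0 roots and 0.0415 RPKM in Can-0 roots. It was at most 0.129 RPKM in the 4 other libraries, and so did not enter the test. The root values correspond to an estimated 2146 reads and 1 read after rounding, a ratio per mapped read of 2171 with a 95% counting interval of 389 to 85780. The unrounded Can-0 estimate was 1.11 reads, so rounding raised the ratio and its interval. The ratio of the RPKM values themselves was 1961. Its Can-0 minus Col-0 difference in roots was the sixth most negative of 18973 features. TIP2-2, which shares 81.5% of 753 aligned coding bases with TIP2-3, was at 459 and 349 RPKM in the same libraries. The gene lies at chr5:19248249-19249622 on the minus strand. The neighbour AT5G47455 was at 7.71 and 4.65 RPKM in roots and AT5G47440 at 0.251 and 0.373 RPKM. Root hair markers were also lower in Can-0 roots, 67.2 against 108 RPKM, while endodermis markers were at 130 against 135 RPKM. Their part in the difference was not tested.

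**Figure D5:**
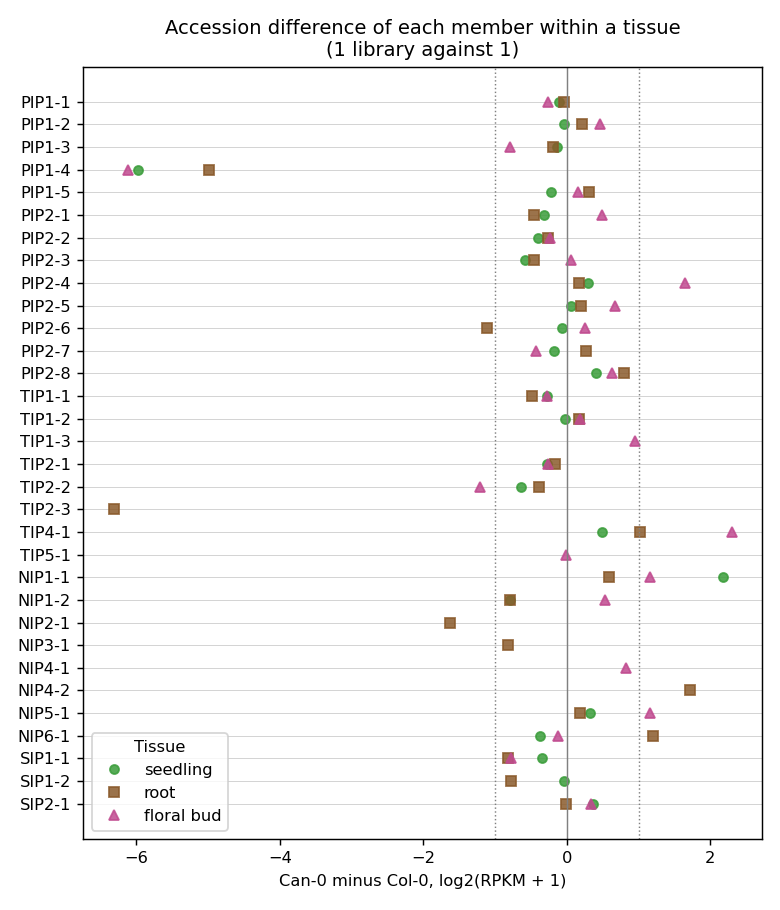
Points give the Can-0 minus Col-0 difference in log2(RPKM + 1) within each tissue, 1 library against 1, for members with at least 1 RPKM in either library of that tissue, and dotted lines mark a difference of 1. PIP1-4 lies far to the left in all 3 tissues and TIP2-3 in roots.

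Genes that work beside aquaporins were followed in 4 lists, whose counts stand beside 18.5% of all features higher and 41.0% lower in seedlings than in roots, 32.8% higher and 12.0% lower in buds than in seedlings, and 30.3% higher and 27.0% lower in buds than in roots. These shares hold for the deposited scaling, and the list counts were not rerun under other scalings. Boron exporters move boric acid out of cells that channels such as NIP5-1 let it into. Of 7, 0 were higher and 3 lower in seedlings than in roots, 5 higher and 0 lower in buds than in seedlings, and 5 higher and 1 lower in buds than in roots, with median differences of -0.22, 1.91 and 1.41. The 3 of 7 lower in seedlings than in roots is near the share of all features. BOR6 and BOR7 passed the filter through buds alone, so their calls in both bud comparisons were set by the filter. The bud counts and medians include them. BOR2 was at 0.510 and 1.49 RPKM in seedlings, 57.3 and 90.3 RPKM in roots and 1.04 and 2.45 RPKM in buds, with a seedling minus root difference of -5.23 ± 0.14 (adjusted p = 9.1e-05). BOR7 was at 29.4 and 46.2 RPKM in buds and at most 0.0437 RPKM elsewhere. BOR4 was at 17.2 and 14.9 RPKM in buds, 5.56 and 5.20 RPKM in roots and at most 0.0188 RPKM in seedlings, and BOR6 was at 3.24 and 7.35 RPKM in buds and listed at 0 elsewhere. NIP5-1 and BOR2 were both highest in roots. The 5 of the 7 exporters called higher in buds than in roots include BOR6 and BOR7, each through the filter. A pairing of channel and exporter was not tested.

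Plasma membrane proton pumps set up the gradient that drives solute uptake. Of 11, 10 were tested, with 2 higher and 4 lower in seedlings than in roots (18.5% and 41.0% of all features), 5 higher and 0 lower in buds than in seedlings (32.8% and 12.0%), and 5 higher and 3 lower in buds than in roots (30.3% and 27.0%). The seedling and root counts are near those shares. AHA6 and AHA9 passed the filter through buds alone and AHA4 through roots alone. Their differences from that tissue were set by the filter, and the counts include them. AHA2, the main root pump, was at 72.1 and 88.4 RPKM in seedlings, 1046 and 1163 RPKM in roots and 134 and 96.7 RPKM in buds, with a seedling minus root difference of -3.77 ± 0.22. AHA6 and AHA9 were at 92.2 and 151 RPKM and at 124 and 146 RPKM in buds and at most 0.0922 RPKM elsewhere. AHA3 and AHA11 were the pumps higher in seedlings than in roots, by 1.73 ± 0.18 and 1.35 ± 0.11. AHA7 was lower there, by a difference of -3.66 ± 0.30, and AHA4 was lower in buds than in roots, by a difference of -1.58 ± 0.18.

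Of 12 genes of aquaporin traffic and regulation, 0 were higher and 8 lower in seedlings than in roots, 4 higher and 1 lower in buds than in seedlings, and 1 higher and 5 lower in buds than in roots. At the deposited scaling the bud and seedling counts are near the shares of all features, 32.8% higher and 12.0% lower. TSPO passed the filter through buds alone, so its higher calls in both bud comparisons were set by the filter. It was the 1 gene called higher in buds than in roots. QSK1, a receptor kinase that acts on aquaporins, was at 12.5 and 14.8 RPKM in seedlings, 35.9 and 36.8 RPKM in roots and 14.7 and 17.6 RPKM in buds. SYP122, a syntaxin of the plasma membrane, was lowest in buds, at 5.21 and 16.1 RPKM against 64.6 and 68.5 RPKM in roots. TSPO, which directs PIP2-7 to degradation, was at 8.97 and 8.92 RPKM in buds and at most 0.846 RPKM elsewhere. VAP27-1 was lower in seedlings than in roots by a difference of -1.28 ± 0.11 and higher in buds than in seedlings by 0.90 ± 0.11.

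Of 5 pumps and channels of the vacuole membrane, 1 was higher and 4 lower in seedlings than in roots (18.5% and 41.0% of all features), 1 higher and 1 lower in buds than in seedlings (32.8% and 12.0%), and 0 higher and 4 lower in buds than in roots (30.3% and 27.0%). VHA-a2, a subunit of the vacuolar proton pump, was at 15.0 and 15.8 RPKM in seedlings, 28.7 and 28.8 RPKM in roots and 19.5 and 20.7 RPKM in buds. Its seedling minus root difference was -0.86 ± 0.11 (adjusted p = 0.00287) and its bud minus seedling difference 0.36 ± 0.11 (adjusted p = 0.0488). VHA-A, another subunit, was lower in buds than in roots by a difference of -0.57 ± 0.13 (adjusted p = 0.0186). CLCa, a nitrate exchanger, was at 43.7 and 29.9 RPKM in seedlings, 66.1 and 58.1 RPKM in roots and 23.8 and 21.1 RPKM in buds. AVP1, a proton-pumping pyrophosphatase, was higher in seedlings than in roots by 0.44 ± 0.14. In each of the 4 lists 0 genes were called between the accessions by limma, and at an unadjusted p under 0.05 there were 2 boron exporters, 1 proton pump and 0 of the others.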

How the data were processed

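Per the labels' protocols, mRNA was fragmented and made into libraries with a small RNA protocol of Illumina, adapted for that input. The values are RPKM, which the authors deposited for 28775 features with that unit named in the file headers. Per the submitters' processing notes, builds TAIR9 and TAIR10 were involved. How reads were aligned and counted, whether strand was used and how reads matching several genes were treated is not given in the sources used here. Small RPKM values lie partly on multiples of what 1 read is worth, with 44.9% to 56.9% of values of 20 reads or fewer within 0.1 of a whole number. Depth was estimated from that step, at 21700000 to 22800000 mapped reads per library, and read numbers derived from it are estimates. A count of 0 allows up to 3 reads, which is 0.132 to 0.138 RPKM for a gene of 1 kb. Intervals cover counting error only.

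From RPKM as deposited, log2(RPKM + 1) was fitted with limma 3.58.1 in R 4.3.3, as an additive model of tissue and accession, with trended empirical Bayes moderation and two-sided tests. Features with at least 1 RPKM in at least 2 libraries were kept. There were 2 residual and 2.55 prior degrees of freedom, and the script was tested on simulated data. RefSeq annotation TAIR10.1 gave symbols, positions and sequences. It matched 28009 features and all 35 members, and no coordinates came from the expression files. Transcripts were compared with BLAST+ 2.17.0, and no member had another gene at 95% identity over 50% of its length. The 35 members are all named. Of each partner list, up to 2 called genes per direction with the largest difference were named in each comparison, and within a tissue the members with a difference of at least 1. One gene of a partner list is not reported here. The members and lists were chosen with earlier results of these data known. Alternatives tried were other pseudocounts, other filters, quantile and median scaling, no trend, robust fitting, a minimum difference and each library left out.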

Additional observations from a re-analysis of the deposited data

How the results depend on the processing

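No member that was called changed direction under any alternative that was run. The pseudocount of 0.1, robust fitting and a mean of at least 5 RPKM ended no call of a member that still entered the fit. The counts of features called between accessions were 74 with a pseudocount of 5, 80 without a filter and 68 at a mean of at least 5 RPKM, against 200. Members lower in buds than in seedlings numbered 9 with median-centred libraries, against 5. A minimum difference of 1 left 7856 features called for seedling minus root, with 2 members higher, 5290 for bud minus seedling, with 2 members lower, and 7886 for bud minus root. With a pseudocount of 5, the members past a difference of 1 within a tissue were 1 in seedlings, 2 in roots and 2 in buds.

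Leaving out 1 library at a time, the features called ranged from 8068 to 11258 for seedling minus root, 2859 to 8997 for bud minus seedling, 6584 to 11799 for bud minus root and 0 to 120 between accessions. Members ranged from 3 to 6 higher and 10 to 15 lower for seedling minus root, 4 to 10 higher and 2 to 5 lower for bud minus seedling, 3 to 9 higher and 9 to 14 lower for bud minus root, and 0 higher and 0 to 1 lower between accessions. With 1 library of a tissue left, that library is assumed to vary like the others. The cause of these shifts was not tested, beyond the smaller number of libraries.

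Under quantile normalization the mean seedling shares of the aquaporin sum were 22.3% for PIP1, 24.1% for PIP2, 48.8% for TIP, 1.41% for NIP and 3.37% for SIP. The root shares were 23.0% for PIP2 and 43.6% for TIP, and the bud share of PIP2 was 33.2%. Without the highest member of each library, the seedling shares were 33.3% for PIP1, 35.95% for PIP2, 24.3% for TIP, 1.72% for NIP and 4.67% for SIP. The root shares were then 29.0% for PIP1, 27.5% for PIP2 and 32.8% for TIP. The bud shares were 30.9% for PIP1, 27.3% for PIP2, 31.7% for TIP and 6.49% for SIP, as means of both accessions. In buds the member left out was PIP2-7 in Col-0 and TIP1-2 in Can-0. The bud means for PIP2 and TIP therefore join unlike removals and describe neither library. Summing near-identical members was not run, since no pair of members reached 95% identity. No paired analysis was possible because each group has 1 library and the replicate number 1, which leaves no replicate block to fit beyond the accession term that the tissue comparisons already carry.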
